A study of Mus musculus with 4 samples.

Results

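Elongating RNA polymerase II (POL2 in the labels), recognised by phosphate on serine 2 of its tail, was profiled by chromatin immunoprecipitation and sequencing in whole mouse uterus at 2 stages. The regions described here are long stretches that carried it at both stages but were covered over more of their length in the adult. Listed intervals of both stages, called domains here, were pooled and merged wherever no more than 5 kb lay between them, which gave 11353 stretches, of which 5804 were covered at both stages. A stretch was chosen when PD12 covered any of it and adult cover exceeded PD12 cover by at least 10 kb. This held for 465 stretches (8.01% of the 5804), called adult-excess stretches. The stretches were thus chosen by the POL2 cover of both stages, so POL2 cover, widths and domain numbers are given as a description and nothing is tested on them.

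The uteri were taken at postnatal day 12 (PD12) and in the adult on days 2.5 and 3.5 of pseudopregnancy, the hormonal state after a sterile mating. FOXA2 was profiled in the same tissue at the same stages, so there were 4 groups of antibody and stage, each with 1 library. Both adult days stand on 1 library, and the labels do not say how they were combined, nor do they give the strain, the number of animals or any pooling. No agent or altered allele is named for any group. With 1 library per group there is no replicate check of any difference between stages, and no p-value is given. Every interval after a value covers counting error at 95% confidence only: exact binomial (Clopper-Pearson) for shares and exact Poisson for densities.

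As an elongating polymerase moves away from the start of a gene, serine 2 of the repeats in its tail becomes phosphorylated, and this form is found along the bodies of transcribed genes and past their ends. A long run of domains is the usual form of such a signal over a long gene or over several neighbouring genes. FOXA2, a forkhead transcription factor, is made in uterine gland cells and is needed for gland development and for the glandular secretions on which implantation depends. Glands form in the mouse uterus after birth, and in early pseudopregnancy progesterone rises and the uterus moves towards the receptive state. Whole uterus also holds luminal epithelium, stroma, smooth muscle and vessels, so fewer cells of a type and less signal per cell cannot be told apart.

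The lists give chromosome, start and end of called intervals, with no height or read count, so depth is unknown for each library. The PD12 POL2 list held 9972 domains over 70.4 Mb and the adult list 14818 over 95.2 Mb, while FOXA2 had 814 intervals at PD12 and 10373 in the adult. The adult POL2 list was therefore the longer one, and the part of list length and depth in the excess of single stretches was not tested. The files name no genome build. Of the adult-excess stretches, 2 ended beyond the last gene of the GRCm38 gene table, as did 85 of all stretches, so positions are given as in the files and no gene, exon, intron or sequence is assigned to them. For the same reason the tissue was not checked against marker genes.

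Across the 465 stretches, adult cover had a median of 27.6 kb (interquartile range 20.4 to 42.2, highest 290.6) and PD12 cover a median of 10.4 kb (5.6 to 19.4, lowest 1.0, highest 266.8). The excess had a median of 14.6 kb (12.0 to 20.4) and reached 163.2 kb. Most stretches therefore lay close to the margin, with 122 at an excess of 20 kb or more, 30 at 40 kb or more and 7 at 80 kb or more. PD12 cover was less than 10% of adult cover in 18 stretches, 10 to 25% in 92, 25 to 50% in 206 and at least 50% in 149. The last class had a median span of 46.8 kb, against 32.0 kb over all 465, but it also held shorter stretches.

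**Figure D1:**
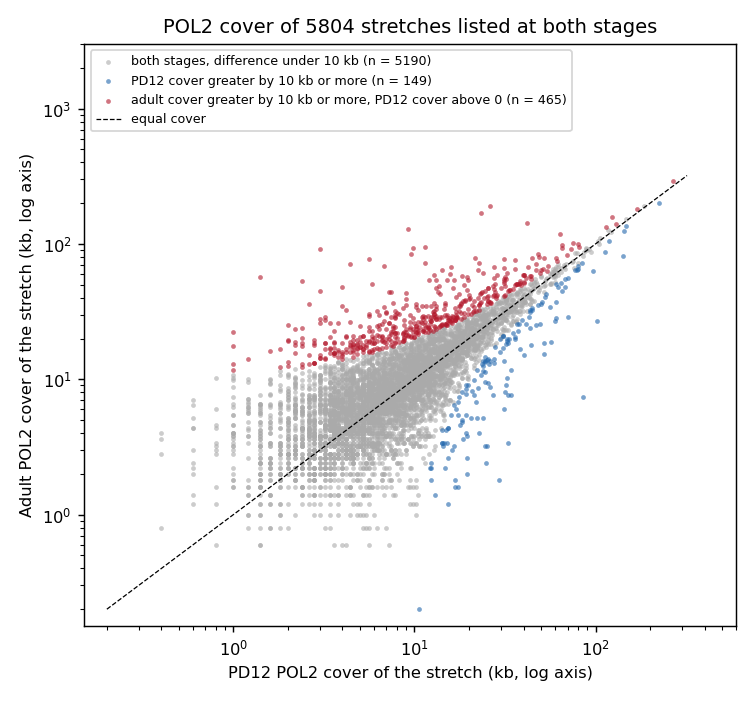
Adult against PD12 POL2 cover in kb on log axes, 1 point for each of the 5804 stretches covered at both stages. The 465 adult-excess stretches (red) lie above the line of equal cover, from 1.0 to 266.8 kb of PD12 cover, and the 149 stretches with the opposite difference (blue) lie below it.

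The opposite difference, with PD12 cover at least 10 kb above adult cover, was met by 149 stretches (2.57% of the 5804). Their median span of 33.2 kb was close to the 32.0 kb of the adult-excess stretches. A further 312 stretches had an adult excess of at least 10 kb with no PD12 cover, and these were shorter, with a median span of 14.6 kb. The adult-excess stretches held 10.9% of all PD12-covered bases and 17.5% of all adult-covered bases. Their excess summed to 9.04 Mb, against a net adult excess of 10.5 Mb over all stretches covered at both stages and 24.8 Mb over all 11353.

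At the margin, 15 stretches had an excess of exactly 10 kb and 13 stretches at 9.8 kb fell just outside, 1 step of the 200 bp grid on which the domains lie. Just inside were chr1:166362800-166388599, with 15 kb covered at PD12 and 25 kb in the adult, chr2:70517800-70552399, with 18 and 28 kb, and chr2:155893200-155937999, with 31.4 and 41.4 kb. Just outside were chr1:129695200-129713199, with 5.6 and 15.4 kb, chr4:135874000-135923199, with 30.8 and 40.6 kb, and chr6:86442400-86461799, with 1.0 and 10.8 kb. The stretches on either side differed in PD12 and adult cover as widely as among themselves, and were alike only in excess, so membership there rests on a single grid step.

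Most PD12 cover lay inside adult cover, which itself filled 16.7 of the 19.2 Mb spanned by these stretches. A large overlap thus followed from the choice of stretches, and closer nesting than that was not tested. Of the 7.66 Mb covered at PD12 in these stretches, 90.6% was also covered in the adult, and in 203 of 465 stretches every PD12 base was. Only 41.6% of the 16.7 Mb covered in the adult was covered at PD12. The overlap was mirrored in the 149 PD12-excess stretches, where 89.9% of adult bases were also covered at PD12. PD12 cover filled 5.68 of the 6.47 Mb spanned there. In stretches with a smaller difference the corresponding overlaps were 78.9% of PD12 bases and 73.3% of adult bases. Of the 71.4 Mb spanned there, adult cover filled 55.7 Mb and PD12 cover 51.8 Mb.

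The added adult cover came both as wider domains and as separate ones. The 465 stretches held 9.76 Mb covered in the adult alone, and 51.3% of it belonged to adult domains that also overlapped a PD12 domain. The rest belonged to adult domains with no PD12 overlap, at least 1 of which was present in 355 stretches (76.3%). A single PD12 domain was listed in 219 stretches and 3 or more in 136. In the adult, 63 stretches consisted of 1 domain and 294 of 3 or more.

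The place of PD12 cover within the stretches varied. With each stretch split into 3 equal parts, PD12 cover touched 1 outer part and not the other in 279 stretches (60%), which is a frequent outcome wherever a single short domain lies. Of these, 110 had it in the outer part alone and 169 in the outer part and the middle. It touched all 3 parts in 154 stretches, the middle alone in 12, and both outer parts without the middle in 20. Whether the covered end is the start or the end of a gene is not known here.

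The extreme ends of the stretches were mostly adult. In 336 of 465 stretches (72.3%) neither end coincided with a PD12 domain end, in 112 one end did and in 17 both did. In the outermost 5% of the span, 27.1% of bases were covered at PD12 on average, rising to 40.5% at 10 to 15% of the span from an end and falling to 32.7% next to the centre. Adult cover was 94.0% in the outermost 5% and 82.1% next to the centre. In PD12-excess stretches it was the adult cover that was lower, at 41.6% in the outermost 5%, 48.9% in the next 5% and 34.2% next to the centre. In stretches with a smaller difference and at least 13.2 kb long, PD12 cover was 54.0% in the outermost 5% and 74.2% next to the centre. Adult cover there was 69.3% and 76.4%. Lower PD12 cover at the very ends was thus not particular to adult-excess stretches.

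**Figure D2:**
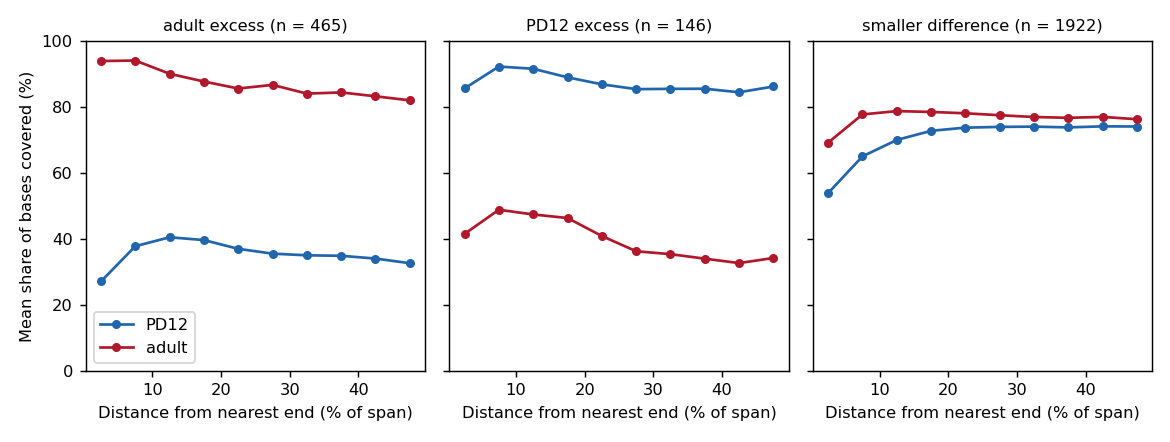
Mean share of bases covered by POL2 (%), by distance from the nearest end as a percentage of the span, for adult-excess stretches, PD12-excess stretches and stretches of smaller difference that span at least 13.2 kb, the span of the shortest adult-excess stretch. PD12 cover in adult-excess stretches stays between 27.1 and 40.5%, and adult cover between 82.1 and 94.2%.

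The 10 stretches with the largest excess are described one by one. The largest, chr5:107524400-107718799, had 189.4 kb covered in the adult in 4 domains. At PD12 it had 26.2 kb in 2 domains that began 0.8 kb from its first base and ended at 39.4 kb. From there to its end at 194.4 kb no PD12 domain was listed. The next, chr6:30999000-31171999, had 169.8 kb in 5 adult domains and 23.2 kb in 3 PD12 domains, all between 4.2 and 48.8 kb from the first base. In both stretches PD12 domains were confined to the part with the lower coordinates.

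At chr18:64684600-64821599, 128.6 kb in 7 adult domains stood against 9.2 kb at PD12, in a domain of 2.6 kb near the first base and a domain of 6.6 kb in the middle. At chr11:76054800-76215999, 142.6 kb in 12 adult domains stood against 41.6 kb at PD12, in 5 domains falling in 2 clusters. This was the exception among the 10, since its PD12 cover reached both outer parts. At chr4:53072000-53173199, 91.6 kb in 7 adult domains stood against a single PD12 domain of 3.0 kb, placed 14.0 kb from the first base.

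At chr5:104181400-104292199, 95.4 kb in 9 adult domains stood against 11.4 kb at PD12, with both PD12 domains at the high-coordinate side. At chr9:115992400-116085999, 92.8 kb in 2 adult domains stood against 9.8 kb at PD12 within the first 14.0 kb. At chr10:87320400-87403999, 1 adult domain covered the whole 83.6 kb and PD12 had domains of 3.8 and 5.8 kb. These 3 had PD12 cover on opposite sides, at the low-coordinate side on chromosome 9 and from the middle or beyond towards the high-coordinate side on chromosomes 5 and 10.

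At chr12:71925800-72009599, 77.4 kb in 6 adult domains stood against 1 PD12 domain of 5.6 kb, from 76.4 to 82.0 kb. At chr14:120674400-120752399, 71.2 kb in 5 adult domains stood against 1 PD12 domain of 4.4 kb that began at the first base. Of the 10, 6 had all PD12 bases inside adult cover and 9 had PD12 cover in 1 outer part and not the other. Together they held 11.0% of the summed excess.

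**Figure D3:**
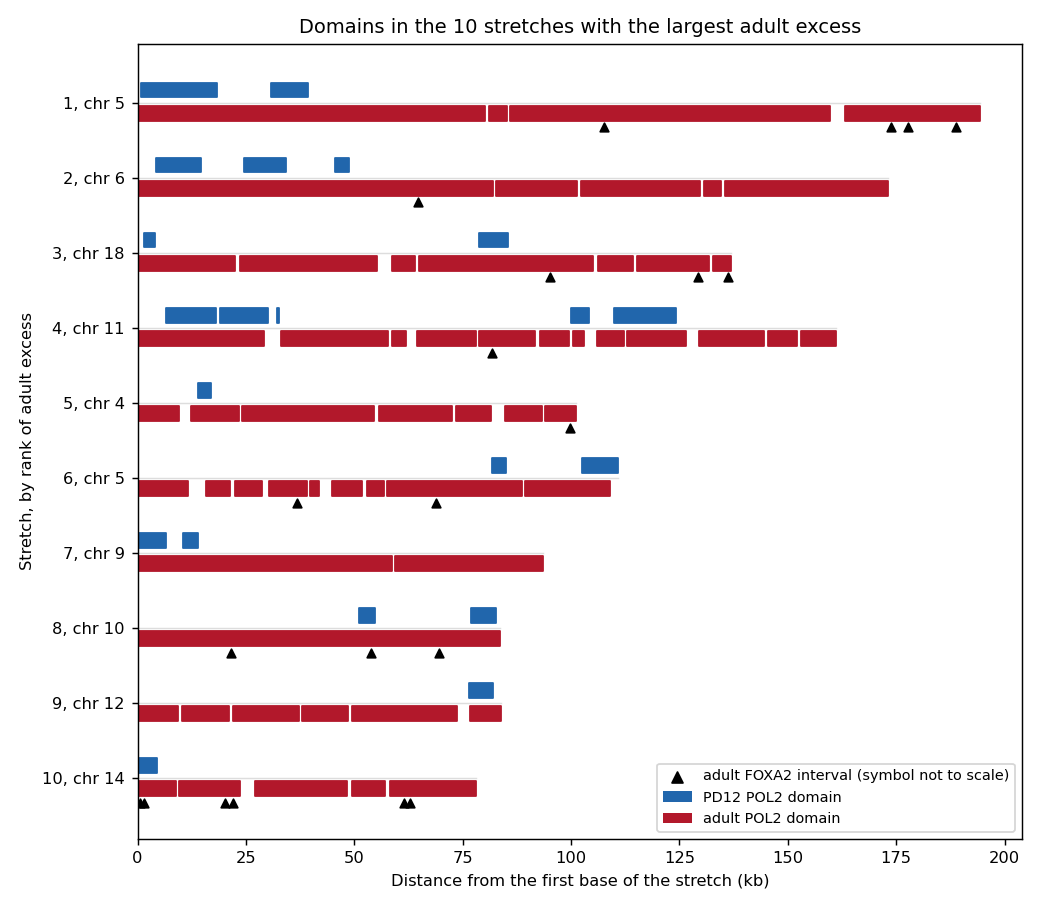
POL2 domains at PD12 (blue) and in the adult (red) and adult FOXA2 intervals (triangles) in the 10 stretches with the largest adult excess, by distance in kb from the first base of each. PD12 domains occupy 1 side of most stretches, while adult domains run over nearly the whole span.

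Other stretches were long and nearly as well covered at PD12. The longest, chr1:170074000-170364599, was 1 adult domain of 290.6 kb in which PD12 had 13 domains covering 266.8 kb, and the excess of 23.8 kb lay in gaps between PD12 domains and at both ends. At chr8:105150400-105311399, 12 PD12 domains covered 123.6 kb and 4 adult domains 158.6 kb. At chr7:80516400-80705999, 5 PD12 domains covered 169.6 kb and 9 adult domains 181.6 kb. In these 3, as at chr11:76054800-76215999, PD12 cover reached all 3 parts. They were chosen for their length after their values were seen.

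Adult-excess stretches occurred on all 20 chromosomes listed. As a share of the stretches covered at both stages, they ranged from 3.51% on chromosome 9 (11 of 313, 1.77 to 6.20) and 3.69% on chromosome 17 (10 of 271, 1.78 to 6.68) to 12.8% on chromosome 19 (25 of 196, 8.43 to 18.3). Of 445 pairs of neighbours on the same chromosome, 19 lay within 20 kb of each other. At chr4:53039600-53062999, 9.0 kb before the fifth of the stretches above, 23.4 kb was covered in the adult by 1 domain and 2.2 kb at PD12. At chr15:66926800-66995799, with 68.2 kb in the adult and 6.8 kb at PD12, the next adult-excess stretch began after 5.2 kb. Such pairs stay apart by the 5 kb limit on joining.

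FOXA2 was not used to choose the stretches. Adult FOXA2 intervals, counted when they overlapped a stretch by at least 1 bp, were present in 182 of 465 adult-excess stretches (39.1%, 34.7 to 43.7). The share was 21.5% over all stretches covered at both stages and 31.8% over those at least 13.2 kb long. Of the 182, 135 held 1 interval and 47 held 2 or more, and the total was 249. These counts say nothing of binding in the cells that carried POL2, since both come from whole uterus.

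The higher share went with the length of the stretches. Among spans of 10 to 20 kb, 21.0% (13 of 62, 11.7 to 33.2) of adult-excess stretches held adult FOXA2, against 19.2% (17.4 to 21.1) of stretches with a smaller difference. From 20 to 40 kb the shares were 34.3% (84 of 245, 28.4 to 40.6) and 35.1% (31.7 to 38.7). From 40 to 80 kb they were 49.6% (61 of 123, 40.5 to 58.8) and 47.3% (39.6 to 55.1), and over 80 kb 68.6% (24 of 35, 50.7 to 83.1) and 68.0% (46.5 to 85.1). Within each class of span the intervals of both kinds of stretch overlapped, so a difference was not detectable at these numbers; equality is not shown by that.

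In PD12-excess stretches the intervals were wide. The share was 9.09% (3 of 33, 1.92 to 24.3) from 10 to 20 kb, 28.8% (17.8 to 42.1) from 20 to 40 kb, 51.2% (35.1 to 67.1) from 40 to 80 kb and 81.3% (54.4 to 96.0) over 80 kb. In adult-only stretches with the same excess the share was 21.7% (16.6 to 27.5) from 10 to 20 kb and 25% (14.7 to 37.9) from 20 to 40 kb. In each of the 4 kinds of stretch, longer spans had the higher share.

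**Figure D4:**
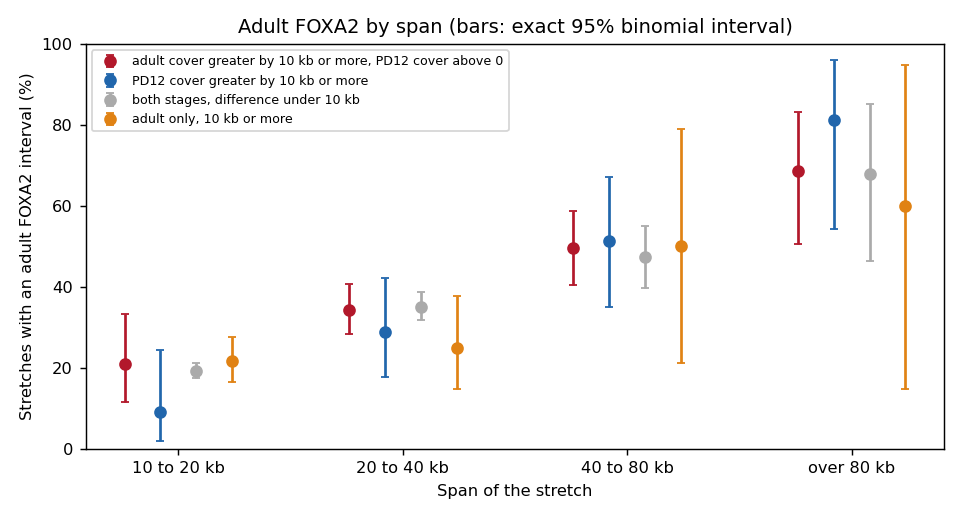
Share of stretches holding an adult FOXA2 interval (%), by span of the stretch, for 4 kinds of stretch, with exact 95% binomial intervals. Shares in adult-excess stretches (red) go from 21.0% at 10 to 20 kb to 68.6% over 80 kb, and the intervals of the other kinds overlap them in each class.

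Per length, adult-excess stretches held 13.0 adult FOXA2 intervals per Mb of span (11.4 to 14.7). All stretches covered at both stages held 15.6 (14.8 to 16.4), and those with a smaller difference and a span of at least 13.2 kb held 15.2 (14.1 to 16.3). Within 50 kb of adult-excess stretches, in DNA outside every stretch, there were 6.83 centres of adult FOXA2 intervals per Mb (6.03 to 7.72). Adult-excess stretches thus held more adult FOXA2 per Mb than their flanks. Against other stretches the direction depended on span and on the FOXA2 intervals used, and no test between densities was made. From 20 to 40 kb adult-excess stretches held 14.8 per Mb (12.1 to 17.9) and stretches with a smaller difference 16.6 (14.9 to 18.5), and from 40 to 80 kb they held 12.3 (9.84 to 15.2) and 11.9 (9.67 to 14.4). Over 80 kb the densities were 10.8 (7.91 to 14.5) and 11.5 (7.78 to 16.5). With the 50% narrowest adult FOXA2 intervals, adult-excess stretches held 4.02 per Mb (3.17 to 5.02) and stretches with a smaller difference and at least 13.2 kb held 3.38 (2.87 to 3.95). With the 50% widest the densities were 8.97 (7.68 to 10.4) and 11.8 (10.8 to 12.8), whose limits did not overlap.

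The size of the excess did not order the density. It was 14.0 per Mb (11.5 to 16.8) for an excess of 10 to 15 kb, 11.5 (8.23 to 15.6) for 15 to 20 kb, 11.7 (8.92 to 15.0) for 20 to 40 kb and 14.7 (10.4 to 20.1) above 40 kb. The share with at least 1 interval was 33.9% (28.0 to 40.1) in the first of these classes and 63.3% (43.9 to 80.1) in the last, whose median spans were 25.6 and 76.4 kb. Stretches with PD12 cover under 10% of adult cover held 14.4 per Mb (7.68 to 24.7) and those with at least 50% held 11.8 (9.55 to 14.3). The intervals of the densities overlapped within each split. Those of the shares given for the first and last classes of excess did not, and the spans of these classes differed too.

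Inside the stretches, the density of adult FOXA2 in DNA with POL2 listed in the adult alone and in DNA with POL2 listed at both stages differed by less than counting error. By the centre of the interval, adult-alone cover held 136 adult FOXA2 intervals in 9.76 Mb, or 13.9 per Mb (11.7 to 16.5). Cover of both stages held 102 in 6.95 Mb, or 14.7 per Mb (12.0 to 17.8). The ratio of the first to the second was 0.949 (0.729 to 1.24). Gaps with POL2 of neither stage held 6 centres, or 3.43 per Mb (1.26 to 7.47), and cover of PD12 alone held 3, or 4.19 per Mb (0.863 to 12.2). The centres of 2 of the 249 lay just outside a stretch.

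The same parts were compared in other stretches. In PD12-excess stretches, cover of both stages held 17.6 adult FOXA2 centres per Mb (13.0 to 23.2) and cover of PD12 alone held 6.01 (3.50 to 9.62), a ratio of PD12-alone to shared cover of 0.342 (0.185 to 0.603). In stretches with a smaller difference, cover of both stages held 21.3 (19.9 to 22.8), adult-alone cover 15.1 (13.2 to 17.2) and PD12-alone cover 5.94 (4.58 to 7.57), and the ratio of adult-alone to shared cover was 0.710 (0.611 to 0.823). This interval overlaps that of the adult-excess stretches between 0.729 and 0.823, and the difference between the ratios was not tested. Stretches with a smaller difference were taken here at all spans, with a median of 10.2 kb against 32.0 kb. These densities and ratios were thus not matched for span. In each kind of stretch, the interval for DNA with POL2 listed at PD12 alone overlapped that of the flanks of adult-excess stretches.

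**Figure D5:**
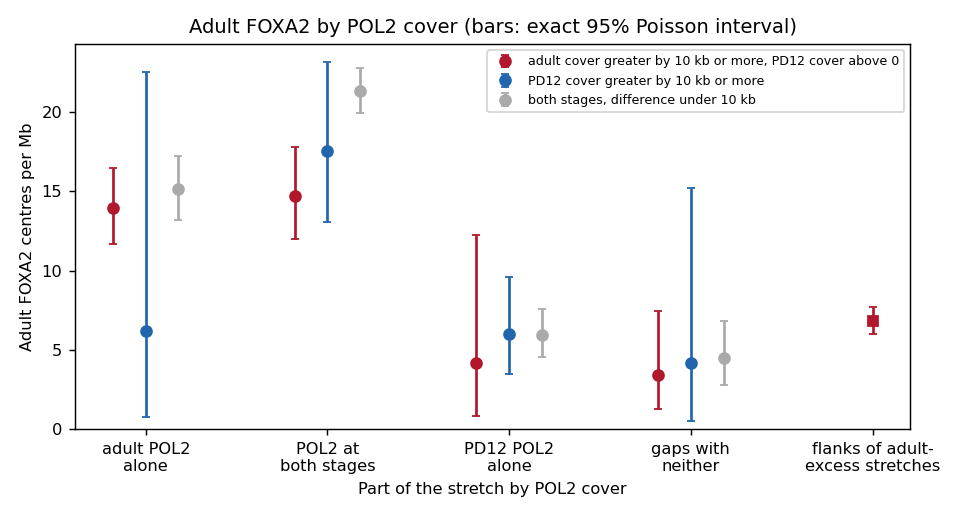
Adult FOXA2 centres per Mb by the POL2 cover of the DNA they lie in, for adult-excess (red), PD12-excess (blue) and smaller-difference stretches (grey), with exact 95% Poisson intervals; the square gives the flanks of adult-excess stretches. In adult-excess stretches the values are 13.9 in adult-alone cover, 14.7 in cover of both stages and 6.83 in the flanks. Smaller-difference stretches are of all spans, so the kinds are not matched for span.

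Adult FOXA2 intervals in the stretches had a median width of 799 bp (655 to 1068), against 868 bp (701 to 1140) in other stretches and 656 bp (543 to 770) outside stretches. Of the 249, 105 had their centre inside a PD12 domain, and the other 144 lay a median of 8.39 kb (4.03 to 15.8) from the nearest one. Centres lay a median of 6.47 kb from the nearest end of their stretch. Each stretch holds a PD12 domain by the rule, so these distances are limited by its span.

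Single stretches show where adult FOXA2 sat. The most intervals, 6, were at chr14:120674400-120752399, in 3 pairs. The first pair, at chr14:120674555-120675210 and chr14:120675306-120676365, lay in the only PD12 domain. The second, at chr14:120694357-120694959 and chr14:120696079-120696955, lay 15.9 and 17.7 kb from that domain, and the third, at chr14:120735621-120736046 and chr14:120736869-120737755, 57.0 and 58.5 kb from it. This stretch thus carried adult FOXA2 both where polymerase was listed at each stage and far into the part listed in the adult alone.

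At chr3:60302200-60439799, 5 adult FOXA2 intervals were spread from 2.66 to 120 kb along a stretch with 117.4 kb of adult and 64.0 kb of PD12 cover. At chr4:71759400-71869599, with 99.8 and 79.8 kb, there were 4, of which 2 lay close together 100 to 104 kb from the first base. At chr5:107524400-107718799 all 4 lay beyond 107 kb, outside the part with PD12 domains, and 3 of them were in the last adult domain. At chr18:64684600-64821599 there were 3, at chr18:64779358-64779904, chr18:64813499-64814299 and chr18:64820301-64821118, each in adult-alone cover. These 5 were the stretches with the most adult FOXA2, equal counts being ordered by excess.

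Among the 10 stretches of largest excess, which spanned 78.0 to 194.4 kb, 8 held adult FOXA2 (80%, 44.4 to 97.5). Of all stretches covered at both stages and over 80 kb long, 71.1% (59.5 to 80.9) did. The 8 held 21 intervals in all. Of these, 18 lay in adult-alone cover and 3 in cover of both stages, while adult-alone cover made up 87.9% of adult cover there. The 2 without any were chr9:115992400-116085999 and chr12:71925800-72009599. A large gain in cover was therefore listed both with several FOXA2 intervals and with none. Over all 465 stretches, 280 (60.2%, 55.6 to 64.7) held no FOXA2 interval of either stage. The longest of them was chr2:44833800-44974199, with 133.0 kb of adult and 113.8 kb of PD12 cover. The share with neither was not computed for other stretches. Adult FOXA2 was absent from most of those too. Among stretches at least 13.2 kb long, it was present in 29.6% of those with a smaller difference and 37.0% of PD12-excess stretches.

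PD12 FOXA2 intervals were few. They were present in 21 of 465 stretches (4.52%, 2.82 to 6.82), with 1 in each and none with 2 or more, against 3.07% of all stretches covered at both stages and 4.86% of those at least 13.2 kb long. By span, the share was 0 of 62 from 10 to 20 kb, which allows a share of up to 5.78%, against 2.63% of stretches with a smaller difference. It was 4.49% (2.26 to 7.89) against 5.11% (3.64 to 6.95) from 20 to 40 kb, and 5.69% (2.32 to 11.4) against 10.1% (5.97 to 15.6) from 40 to 80 kb. Per Mb of span, adult-excess stretches held 1.10 PD12 FOXA2 intervals (0.678 to 1.67), below the 2.19 (1.86 to 2.56) of stretches with a smaller difference, which were shorter. Within spans of 20 to 40 kb and of 40 to 80 kb the densities were 1.56 (0.779 to 2.79) against 2.13 (1.53 to 2.87) and 1.01 (0.408 to 2.09) against 2.09 (1.24 to 3.31), with overlapping intervals and no test of the difference. Over 80 kb the densities were 0.723 (0.149 to 2.11) against 0.769 (0.0931 to 2.78). With all spans pooled, PD12 FOXA2 was thus listed less densely in adult-excess stretches, but the intervals overlapped within each of these classes of span. Of the 21 stretches, 18 also held adult FOXA2. Of the 21 intervals, 15 (71.4%, 47.8 to 88.7) overlapped an adult FOXA2 interval, close to the 72.1% of all 814 PD12 intervals. PD12 FOXA2 was thus rare in these stretches, and where it was listed an adult interval was mostly listed at the same place.

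The centres of 13 PD12 FOXA2 intervals lay in POL2 cover of both stages, and those of 8 lay in DNA where POL2 was listed in the adult alone. Of these 8, 7 overlapped an adult FOXA2 interval, as did 8 of the 13. The 8 were sites where FOXA2 was listed at PD12 and elongating polymerase at the same place only in the adult. Their density was 0.820 per Mb of adult-alone cover (0.354 to 1.62), against 1.87 per Mb of cover of both stages (0.996 to 3.20), a ratio of 0.438 (0.157 to 1.14). In stretches with a smaller difference, 24 PD12 FOXA2 centres lay in adult-alone cover, at 1.61 per Mb (1.03 to 2.40), with a ratio of 0.532 (0.329 to 0.829). Per Mb of adult-alone cover, such sites were thus not more frequent in adult-excess stretches. By number of stretches the order was the opposite, with 8 centres in 465 stretches against 24 in 5190, which were shorter. Of the 8, the farthest from a PD12 domain was chr11:86570642-86571559, at 25501 bp, in a stretch with 16 kb of PD12 and 67.2 kb of adult cover. Next were chr7:132695617-132695911 at 23236 bp, chr17:5324726-5324950 at 19962 bp and chr13:53078228-53078571 at 15000 bp. These 4 were named after their values were seen, and each overlapped an adult FOXA2 interval.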

How the data were processed

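Per the labels' protocols, formaldehyde-fixed uterine chromatin was sheared by sonication, and a goat antibody to FOXA2 or a rabbit antibody to the phosphorylated polymerase was used for precipitation, beside input DNA. BWA is named in the submitters' processing notes, without a version. How peaks were called, at which threshold, with or without input, and on which genome build: not given in the sources used here. The deposited lists, per the file headers, hold positions in bp; they were read as inclusive and used as deposited. The depth of each library is unknown.

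Domains of both POL2 lists were pooled per chromosome and joined across gaps of up to 5 kb. Cover at each stage, shared cover and FOXA2 overlap (1 bp, or the centre for parts of stretches) were computed in Python 3.11.15 with numpy 2.4.6, pandas 2.3.3 and scipy 1.17.1, and drawn with matplotlib 3.10.9. The calculation was tested on simulated lists.

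The stretches, classes and alternatives were chosen with earlier results of these data known. Named stretches are the 10 of largest excess, the 5 with most adult FOXA2, those with 2 or more PD12 FOXA2 intervals (none), 3 on each side of the margin and the longest without FOXA2; others are said to be chosen after their values were seen or are examples of a stated count. The planned gene names, gene lists and sequences around FOXA2 need an annotation and a genome of the files' build, and were not used here.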

Additional observations from a re-analysis of the deposited data

How the results depend on the processing

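For 7 results, 23 alternatives were run, of which 14 gave values inside the 95% limits first reported (for the number of stretches, within 1.5 times) and 9 did not. The number of adult-excess stretches was 1163 with an excess of at least 5 kb and 122 with at least 20 kb, by construction, and stayed between 347 and 603 with gaps of up to 2 and up to 10 kb. The share with adult FOXA2, 39.1%, was 31.5% with an excess of at least 5 kb, 48.4% with at least 20 kb and 44.1% with gaps of up to 10 kb, settings that also change the span. With the 50% narrowest adult FOXA2 intervals it was 14.2% and with the 50% widest 29.7%, where the density was 4.02 and 8.97 per Mb of span, fewer intervals being counted. In the stretches of smaller difference and at least the same span, the density was 3.38 per Mb with the narrowest and 11.8 with the widest. With the widest, the limits of the 2 kinds of stretch did not overlap (7.68 to 10.4 against 10.8 to 12.8). The ratio of adult FOXA2 density in adult-alone cover to that in cover of both stages stayed between 0.932 and 0.991. With flanks of 20 kb, an alternative chosen after the data were seen, the flanks held 6.34 centres per Mb. No paired analysis was possible because there was 1 library for each antibody and stage. Unknown depth limits every comparison of cover between stages.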

Other observations

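In 2 adult-excess stretches no base was shared by the stages. At chr3:52068400-52093999, 1 PD12 domain of 2.0 kb lay between 2 adult domains covering 19.2 kb, with 1 adult FOXA2 interval. At chr12:52866800-52883599, 1 PD12 domain of 1.8 kb lay among 3 adult domains covering 12.4 kb, without FOXA2. The opposite form, 1 adult domain running through the whole stretch, was seen with little PD12 cover at chr13:113252600-113306599 (54.0 kb in the adult, 12.0 kb at PD12) and chr7:132694400-132728599 (34.2 and 6.8 kb). The latter, 34.2 kb long, held 3 adult FOXA2 intervals and 1 PD12 one, and chr10:67725000-67743199, 18.2 kb long with 4.8 kb of PD12 cover, held 3 adult ones. These stretches were named after their values were seen.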
